A study of Rattus norvegicus with 20 samples.

Results

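Cd68, Cd74, Ptprc, C1qa and Ccl2, 5 marker genes of macrophages and other leukocytes, were followed in the gastrocnemius muscle and the abdominal white fat of the same rats. The genes were chosen by name for the cells they mark, with earlier results of these data known. Their rows were found by Ensembl identifier (Cd68 ENSRNOG00000037563, Cd74 ENSRNOG00000018735, Ptprc ENSRNOG00000000655, C1qa ENSRNOG00000012807 and Ccl2 ENSRNOG00000007159). Of these, 5 of 5 were present among the 32883 genes of the deposited table, and 5 of 5 passed the filter on low counts. The names come from the list of identifiers used to choose them, since the table itself gives no names. RNA was sequenced in 20 libraries, 10 of gastrocnemius, a calf muscle of mixed fibre types, and 10 of abdominal white adipose tissue, from 10 rats of the cross Fischer 344 x Brown Norway at 8 months of age. Every animal was kept for 2 weeks on a reversed light cycle, and libraries with the same number came from the same animal. The sample labels give every animal as male whereas the design text speaks of both sexes, so no sex was assigned. Both tissues were taken whole and no cells were sorted, so each value sums over all cells of a piece of tissue.

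Macrophages live in both tissues, in muscle mainly in the connective tissue between and around fibres and in fat between adipocytes and around vessels. Ptprc encodes CD45, a receptor tyrosine phosphatase on the surface of nearly all nucleated blood-derived cells. Cd68 encodes a heavily glycosylated protein of lysosomes and late endosomes that is abundant in macrophages. C1qa encodes a chain of C1q, the recognition part of the first complement component, which tissue macrophages make. Cd74 encodes the invariant chain, which escorts MHC class II molecules in antigen-presenting cells such as macrophages, dendritic cells and B cells. Ccl2 encodes a chemokine that draws monocytes through the receptor CCR2, and stromal and endothelial cells make it as well as leukocytes.

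Total counts ran from 8446548 to 20141701 per muscle library and from 11067641 to 25904168 per adipose library. Levels are given in CPM, the read counts of a gene relative to the library total, corrected by trimmed-mean (TMM) factors. Without those factors, with library totals alone, the log2 fold changes of all tested genes shifted towards lower values in muscle, with a median shift of -1.30. As a measure of each tissue in the other, 154 genes nearly restricted to adipose tissue reached, in the muscle libraries, 0.208% to 0.533% of the level they had in fat, highest in animal 2. A corresponding 170 muscle-restricted genes stood at 1.41%, 1.57% and 0.454% of their muscle level in adipose libraries 1, 3 and 5, and at 0.0265% to 0.149% in the other 7. Both sets were defined on these libraries with library totals, by a median of at least 20 CPM and at least 100 times that of the other tissue, and their genes could not be named.

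All 5 genes were lower in muscle than in adipose tissue, in 10 of 10 animals each. The estimated differences ran from 16.1-fold for Cd68 to 6.35-fold for Ccl2. For each gene the highest muscle library lay below the lowest adipose library. Over all 13806 genes tested, 42.2% were called lower in muscle, 24.5% were called lower with no overlap of libraries, and 8.95% were called at least 8-fold lower (quasi-likelihood test of edgeR, p below 0.05 after Benjamini-Hochberg adjustment). Of the 5 genes, 4 were at least 8-fold lower, the exception being Ccl2. C1qa lay close to that cut, at 8.39-fold. Its log2 fold change was -2.96, -2.99 and -2.98 without animal 1, 7 or 8, which is less than 8-fold lower. The median log2 fold change, muscle over adipose tissue, was -3.22 over the 5 genes, -0.09 over all genes tested and -1.76 over the genes called lower in muscle. Ranked among all tested genes, the log2 fold changes of Cd68, Ptprc, Cd74, C1qa and Ccl2 stood at percentiles 3.84, 6.12, 7.33, 8.39 and 11.7 from the lowest. These shares, medians and percentiles are descriptions, since the genes were chosen with earlier results of these data known. Levels are shares of a library, and the tissues were sequenced whole. Fewer leukocytes in muscle, less of these transcripts per leukocyte and more RNA from other cells of muscle thus cannot be told apart. For Ccl2, cells other than leukocytes may also contribute.

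**Figure D1:**
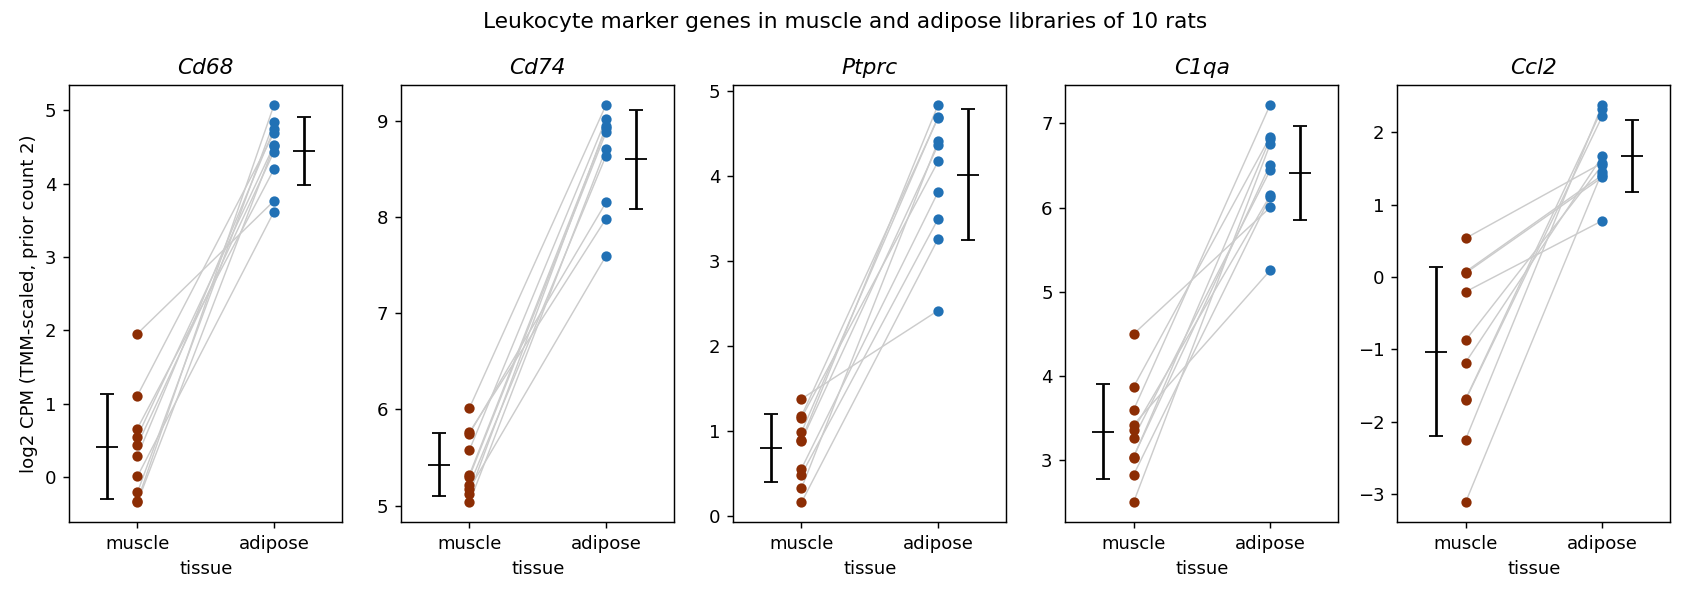
Level of each gene as log2 CPM (TMM-scaled, prior count 2) in 10 muscle and 10 adipose libraries. Points are libraries, grey lines join the libraries of an animal, and bars give mean and SD. Each line rises from muscle to adipose tissue, and in no panel do the libraries of the tissues overlap.

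The sequences upstream of the genes are shown because the genes were lower together in muscle. They were taken from RefSeq (rat assembly GRCr8) by symbol, as 250 bases before and 50 after each gene start, and the table held 4 of the 5 genes. In Cd68, Ptprc and C1qa the capitals mark the motif GGAAGT on either strand. It is a purine-rich motif of the kind bound by ETS factors such as PU.1 of myeloid cells. In Cd74 they mark the motif CCAAT on either strand, the core bound by NF-Y in genes of MHC class II presentation. The stretches are Cd68 at chr10:54882392-54882691 (minus strand), Ptprc at chr13:52259697-52259996 (minus strand), C1qa at chr5:154419884-154420183 (minus strand) and Cd74 at chr18:56526956-56527255 (plus strand), each printed 5′ to 3′ along the gene.
Cd68: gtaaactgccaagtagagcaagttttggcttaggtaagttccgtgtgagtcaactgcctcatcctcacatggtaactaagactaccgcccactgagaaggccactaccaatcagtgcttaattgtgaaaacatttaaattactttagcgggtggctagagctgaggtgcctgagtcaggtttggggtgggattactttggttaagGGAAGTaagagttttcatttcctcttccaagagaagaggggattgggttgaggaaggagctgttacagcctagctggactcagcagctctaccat
Ptprc: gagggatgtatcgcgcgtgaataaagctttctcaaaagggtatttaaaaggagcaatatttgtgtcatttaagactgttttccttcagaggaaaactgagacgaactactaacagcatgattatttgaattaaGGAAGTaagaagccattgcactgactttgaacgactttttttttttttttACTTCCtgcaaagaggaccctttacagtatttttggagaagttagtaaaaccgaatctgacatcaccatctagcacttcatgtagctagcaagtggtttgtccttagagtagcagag
C1qa: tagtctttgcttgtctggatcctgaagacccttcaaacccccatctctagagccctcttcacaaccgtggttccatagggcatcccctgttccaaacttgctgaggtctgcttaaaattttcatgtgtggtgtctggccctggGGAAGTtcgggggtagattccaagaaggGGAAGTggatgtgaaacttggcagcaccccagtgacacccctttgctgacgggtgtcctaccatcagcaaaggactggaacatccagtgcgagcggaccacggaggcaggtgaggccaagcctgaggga
Cd74: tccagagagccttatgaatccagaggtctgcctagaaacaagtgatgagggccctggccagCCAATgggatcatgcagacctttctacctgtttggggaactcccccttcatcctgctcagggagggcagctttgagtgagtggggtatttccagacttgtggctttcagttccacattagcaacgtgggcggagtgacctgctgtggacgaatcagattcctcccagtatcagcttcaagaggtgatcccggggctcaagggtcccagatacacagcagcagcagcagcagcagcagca
The motif GGAAGT occurred 1 time in the Cd68 stretch, 2 times in that of Ptprc and 2 times in that of C1qa. It was not found in that of Cd74. Shorter or other sequences that ETS factors bind were not counted and may occur in any of the stretches. Of 33469 such stretches in the table, 22.6% hold GGAAGT. The NF-Y core occurred 1 time in the Cd74 stretch and 2 times in that of Cd68, where it is left in lower case, and was not found in those of Ptprc and C1qa; 37.5% of the stretches in the table hold it. The motifs were chosen after the sequences were seen. These matches are descriptions of the letters and were not tested for binding.

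Ptprc, the general leukocyte gene, had 1.01, 1.74 and 2.49 CPM in the lowest, median and highest muscle library, against 5.22, 19.1 and 28.4 CPM in the adipose libraries. The lowest adipose library, that of animal 6, lay 2.10 times above the highest muscle library, which came from the same animal. The mean was 1.69 ± 0.483 CPM over the muscle libraries and 17.9 ± 7.74 CPM over the adipose libraries (SD, n = 10 each). The log2 fold change, muscle over adipose tissue, was -3.40 (SE of 0.28; adjusted p = 1.73e-10 in edgeR). The muscle values rested on 10 to 28 counts per library. Their variance between libraries was 1.53 times that of counting alone, so at this depth differences of Ptprc among muscle libraries are hardly larger than counting error. In adipose tissue it was 72.0 times. That measure grows with the counts, 172 over the muscle and 4484 over the adipose libraries, so it does not compare the spread of the tissues. The SD was 28.6% of the mean in muscle and 43.3% in adipose tissue.

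Cd68, the lysosomal macrophage gene, had 0.67, 1.17 and 3.76 CPM in the lowest, median and highest muscle library, against 12.2, 22.8 and 33.6 CPM in the adipose libraries. The muscle library of animal 4 held the highest value, on 35.1 deposited counts, while the other 9 held at most 2.04 CPM. The mean was 1.39 ± 0.933 CPM over the muscle libraries and 22.6 ± 6.63 CPM over the adipose libraries (SD, n = 10 each). The log2 fold change was -4.01 (SE of 0.28; adjusted p = 1.50e-11 in edgeR). Without muscle library 4 it was -4.28. Per animal, the log2 difference between the tissues ran from -5.41 in animal 8 to -1.81 in animal 4.

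C1qa, the complement gene, had 5.52, 9.80 and 22.4 CPM in the lowest, median and highest muscle library, against 38.0, 89.0 and 149 CPM in the adipose libraries. Muscle library 4 was again the highest of its tissue, and adipose library 6 the lowest of its own, with a 1.69-fold gap between them. The mean was 10.8 ± 4.84 CPM over the muscle libraries and 90.5 ± 31.8 CPM over the adipose libraries (SD, n = 10 each). The log2 fold change was -3.07 (SE of 0.25; adjusted p = 2.16e-10 in edgeR). The muscle libraries rested on 42.9 to 209.4 counts, and their variance was 21.3 times that of counting alone.

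Cd74, the invariant chain, had the most counts of the 5 genes in both tissues, 4510 over the muscle libraries and 102837 over the adipose libraries. It had 32.6, 39.6 and 64.6 CPM in the lowest, median and highest muscle library, against 193.9, 446.7 and 576.7 CPM in the adipose libraries. The highest muscle library was that of animal 9, and the lowest adipose library that of animal 4. The mean was 44.0 ± 10.6 CPM over the muscle libraries and 410.4 ± 126.4 CPM over the adipose libraries (SD, n = 10 each). The log2 fold change was -3.22 (SE of 0.20; adjusted p = 1.24e-12 in edgeR), with the smallest SE of the 5. Levels are not compared between genes, because the table gives no gene lengths.

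Ccl2, the monocyte chemokine, had 0, 0.38 and 1.33 CPM in the lowest, median and highest muscle library, against 1.60, 2.83 and 5.08 CPM in the adipose libraries. It had 51 counts over all 10 muscle libraries and 814 over the adipose libraries. In muscle, 4 of 10 libraries held 3 counts or fewer, and library 1 held 0, which allows up to 0.255 CPM (3 counts). The mean was 0.518 ± 0.442 CPM over the muscle libraries and 3.24 ± 1.17 CPM over the adipose libraries (SD, n = 10 each). The log2 fold change was -2.67 (SE of 0.42; adjusted p = 4.85e-06 in edgeR). With the animal as a block it was -2.79 (SE of 0.51, adjusted p = 0.000217 in edgeR). The tissues were nearest for this gene: muscle library 6 held 15 counts (95% exact Poisson interval 0.746 to 2.20 CPM) and adipose library 4 held 43 counts (1.16 to 2.15 CPM), so these 2 libraries cannot be told apart at this depth. Such intervals and floors cover counting error only, since reads without molecular identifiers are not independent molecules.

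With library totals alone the gaps between the tissues were wider, from 4.01-fold for Ccl2 to 9.57-fold for Cd74 between the highest muscle and the lowest adipose library. The log2 fold changes were then -5.29 for Cd68, -4.70 for Ptprc, -4.51 for Cd74, -4.36 for C1qa and -3.98 for Ccl2. With library totals 74.2% of all genes tested were called lower in muscle. Taken relative to the median shift of all genes they were -3.99, -3.40, -3.20, -3.06 and -2.67, in the same order of genes. The shift is measured from the fold changes with TMM factors, so a return to near those values is built in. By library totals, without taking off that shift, the mean muscle level was 2.55% of the adipose level for Cd68, 3.83% for Ptprc, 4.40% for Cd74, 4.87% for C1qa and 6.32% for Ccl2. With TMM factors the corresponding values were 6.18%, 9.46%, 10.7%, 11.9% and 16%. The values by library totals each lie above the 0.208% to 0.533% at which the adipose-restricted genes stood in muscle libraries. Those genes were chosen to be low there, which largely set the outcome of this comparison. The part of adipose tissue in the muscle levels of the 5 genes was not tested. With adipose libraries 1, 3 and 5 left out, the log2 fold changes with TMM factors were -3.92 for Cd68, -3.47 for Ptprc, -3.12 for Cd74, -3.03 for C1qa and -2.62 for Ccl2.

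Ratios between genes within a library do not depend on how libraries are scaled, and they ask whether the genes were lower in muscle to the same extent. Cd68 was lower in muscle by a larger factor than C1qa. The log2 ratio of Cd68 to C1qa counts (0.5 counts added to each) averaged -2.99 ± 0.67 over the muscle libraries and -1.97 ± 0.32 over the adipose libraries (SD, n = 10 each). The difference of -1.02 (SD 0.73 over animals), a 2.03-fold lower ratio in muscle, was seen in 10 of 10 animals (two-sided exact permutation test by sign flips, p = 0.00195, the lowest value that 10 animals allow; adjusted over 10 pairs of genes, p = 0.0195). It ranged from -2.21 in animal 3 to -0.26 in animal 1.

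The ratio of Cd68 to Cd74 was lower in muscle by a log2 difference of -0.92 (SD 0.71), in 9 of 10 animals (exact permutation test by sign flips, p = 0.00977, adjusted p = 0.0488). Animal 4, with the highest Cd68 level in muscle, was the exception. This call was close to the threshold and was lost when any 1 animal other than animal 4 was left out, with adjusted p of 0.0781 or 0.0977 in the same exact test. The log2 difference was then -0.97 to -0.83, about as large as with all animals, and 9 animals leave a higher lowest p. With 2 counts added in place of 0.5 the call held, with a log2 difference of -0.75 (adjusted p = 0.0326, same exact test). The ratio of Cd68 to Ptprc was lower in muscle in 8 of 10 animals, with a log2 difference of -0.85 (SD 1.11), which did not pass the adjustment (exact permutation test by sign flips, p = 0.0391, adjusted p = 0.130). Without animal 4 the difference was -1.08 and the adjusted p of the same exact test was 0.026. Animal 4 had the largest difference in the other direction, 1.23, so leaving it out was bound to lower the mean difference. With any other animal left out the pair did not pass, with adjusted p of 0.13 to 0.26 in the same exact test.

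The other 3 better counted pairs showed small mean differences. The log2 difference, muscle minus adipose tissue, was 0.07 (SD 0.56) for Cd74 to Ptprc, -0.10 (SD 0.49) for Cd74 to C1qa and -0.17 (SD 0.73) for Ptprc to C1qa, with 7, 5 and 3 of 10 animals higher in muscle (exact permutation test by sign flips, adjusted p = 0.818 each). The 4 pairs with Ccl2 had SDs of 1.36 to 1.80 and adjusted p of 0.244 or more in the same exact test. For these, the few Ccl2 counts of muscle allow no statement about a difference. With 2 counts added in place of 0.5, the ratio of Cd68 to Ccl2 had a log2 difference of -1.49 and passed (adjusted p = 0.0195, exact permutation test by sign flips). The ratios to Ccl2 of Cd74, Ptprc and C1qa also moved down, to -0.75, -0.70 and -0.63, and did not pass. Added counts weigh most on the few Ccl2 counts of muscle, so that pass depends on the number added.

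**Figure D2:**
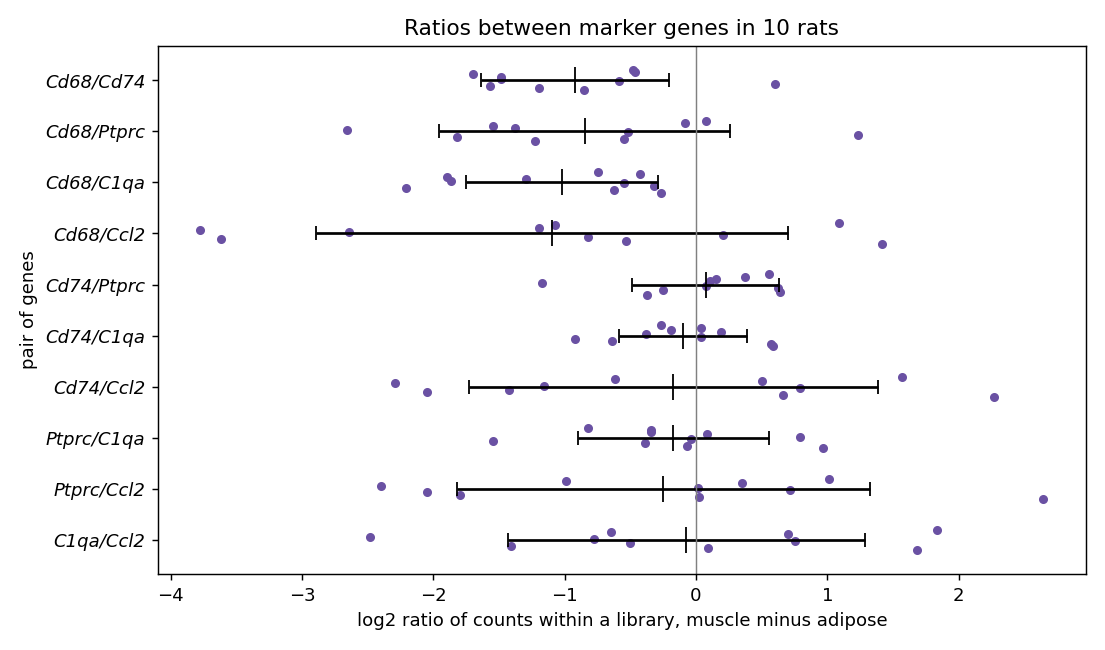
Log2 ratio of the counts of each pair of genes within a library, muscle minus adipose tissue of the same animal. Points are the 10 animals, and bars give mean and SD. For Cd68 to C1qa all 10 animals lie below 0, while the pairs with Ccl2 scatter widely on both sides.

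The next question was which libraries stand apart within their tissue. In no gene and tissue did the gap between an end library and its neighbour exceed Dixon's 95% critical value for 10 samples (0 of 10 groups), so no single library was set apart by that criterion. Several libraries nevertheless held the same end of the range for several genes. Adipose library 8 was among the 3 highest for 5 of 5 genes, and the highest for Cd68, Ptprc and C1qa. Adipose library 4 was among the 3 lowest for 5 of 5 genes, and adipose library 6 for 4 of 5. The share of all tested genes for which a library was among the 3 highest or lowest was not computed, in either tissue. Such counts thus cannot be read as particular to the 5 genes. In library 6 the deviation from the adipose median on the log2 scale was -1.85 for Ptprc, -1.22 for C1qa, -0.90 for Cd68 and -0.82 for Cd74, but 0.02 for Ccl2. In library 4 it was -1.20 for Cd74 and -0.78 for Ccl2.

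The muscle-restricted genes stood at 0.149% of their muscle level in adipose library 4, 0.136% in library 6 and 0.0708% in library 8. Apart from libraries 1, 3 and 5, libraries 4 and 6 thus held the highest values, the next being 0.110% in library 10, and the part of muscle transcripts in the levels of libraries 4 and 6 was not tested. Adipose libraries 1 and 3, which had the most muscle transcripts, had mean ranks over the genes of 5.4 and 7.6 among 10 with TMM factors (rank 1 is the highest). Adipose library 4 also had the largest TMM factor, 1.98. Of its 13881461 counts, 13607656 fell in tested genes, and no other library had as many counts outside them. The part of this in the levels of library 4 was not tested. With library totals the mean rank of library 4 was 8.6, against 9.2 with TMM factors, and it was among the 3 lowest for 4 of 5 genes. Library 6 then had a mean rank of 8.6 (8.8 with TMM factors) and was among the 3 lowest for 4 of 5 genes. Library 3 came close to both with library totals, at a mean rank of 8.4 and among the 3 lowest for 3 of 5 genes. Library 8 was among the 3 highest for 5 of 5 genes under both scalings, with a mean rank of 1.4 by library totals and 1.6 with TMM factors. Without libraries 4 and 6 the log2 fold changes were -4.16 for Cd68, -3.58 for Ptprc, -3.38 for Cd74, -3.22 for C1qa and -2.78 for Ccl2.

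In muscle no library was among the 3 highest or the 3 lowest for all 5 genes. Library 4 was the highest for Cd68 and C1qa, 1.59 and 1.19 above the muscle median on the log2 scale, and was at rank 8 for both Cd74 and Ptprc. Library 9 was the highest for Cd74 and at rank 2 for Cd68 and Ptprc. Library 6 was the highest for Ptprc and Ccl2. Library 1 was the lowest for Cd74, C1qa and Ccl2. Muscle library 2, which held the most adipose-restricted transcripts at 0.533%, was among the 3 highest for 4 of 5 genes, and the part of adipose tissue in its values was not tested. In library 4 the adipose-restricted genes stood at 0.313%, within the range of the other libraries.

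**Figure D3:**
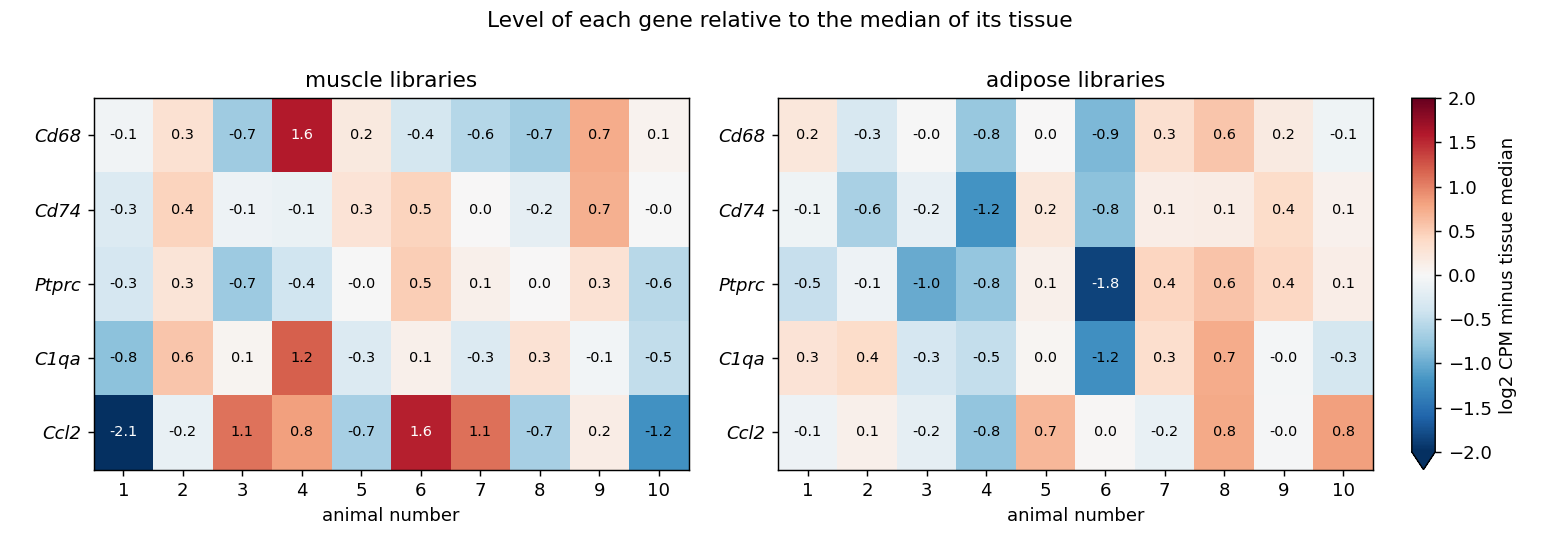
Log2 CPM of each gene in each library minus the median of the gene over the 10 libraries of its tissue. Columns are animals, colours and printed values give the deviation. In the adipose panel, columns 4 and 6 are low and column 8 is high for most genes. In the muscle panel Cd68 and C1qa are high in column 4. Ccl2 varies most on this log2 scale, on only 0 to 15 counts per muscle library, with 4 of 10 libraries at 3 counts or fewer.

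Across animals, several of the genes varied together in adipose tissue. Whether they did so more than in muscle was not tested. In adipose tissue 10 of 10 pairs of genes had a positive Pearson correlation of log2 CPM over the 10 libraries, and in muscle 8 of 10. In all, 25 correlations were computed, 10 pairs in each tissue and each gene between the tissues. By Pearson's r 4 passed the adjustment over the 25 and by Spearman's rho 0 did, with 6 at an unadjusted p of rho below 0.05 (permutation test, 100000 permutations). The scaling factor of a library enters both genes of a pair, so their values share it.

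The 4 that passed were all in adipose tissue. Cd68 and Cd74 had r = 0.86 (permutation p = 0.00201, adjusted p = 0.0348) and rho = 0.75 (permutation p = 0.0168, adjusted p = 0.127). Cd68 and C1qa had r = 0.82 (permutation p = 0.00295, adjusted p = 0.0348) and rho = 0.73 (p = 0.0203, adjusted p = 0.127). Ptprc and C1qa had r = 0.82 (permutation p = 0.00418, adjusted p = 0.0348) and rho = 0.66 (p = 0.0437, adjusted p = 0.182). Cd68 and Ptprc had r = 0.78 (permutation p = 0.00742, adjusted p = 0.0464) and rho = 0.76 (p = 0.015, adjusted p = 0.127). With the 2 libraries farthest from the median of the first gene left out, r was 0.62, 0.54, 0.52 and 0.44 in the same order. Those libraries were 4 and 6, or 3 and 6 for Ptprc and C1qa. Leaving out libraries far from the median tends to lower r for a linear relation, but need not do so. The lower values were not tested, nor was how far the 4 correlations rest on those libraries. Cd74 and Ptprc had r = 0.71 in adipose tissue and r = 0.73 in muscle, which did not pass (permutation p = 0.0215 and 0.0188, adjusted p = 0.0897 each). Their rho was 0.78 and 0.70 (permutation test, adjusted p = 0.127 and 0.155). Cd74 and C1qa had r = 0.52 and rho = 0.45 in adipose tissue and did not pass either (permutation test, adjusted p = 0.302 and 0.471).

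In muscle the pairs of Cd68 with Cd74 and with Ptprc had r = 0.23 and r = -0.01, and Cd68 with C1qa r = 0.51, none of which passed (permutation test, adjusted p = 0.738, 0.968 and 0.302). Their rho was 0.33, 0.16 and 0.22. The r of Cd68 and C1qa was -0.13 without libraries 4 and 9. Cd68 and Ptprc rested on few counts there, 3.5 to 35.1 and 10 to 28 per library. No gene showed a relation between the tissues of an animal that passed: r was -0.47 for Cd68, 0.05 for Cd74, 0.05 for Ptprc, -0.16 for C1qa and -0.52 for Ccl2 (permutation test, adjusted p of 0.302 or more). The rho was -0.41, 0.18, 0.16, -0.05 and -0.53 in the same order. For Ccl2, r was -0.88 without animals 1 and 6, the ends of its muscle range, and that value was not tested.

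**Figure D4:**
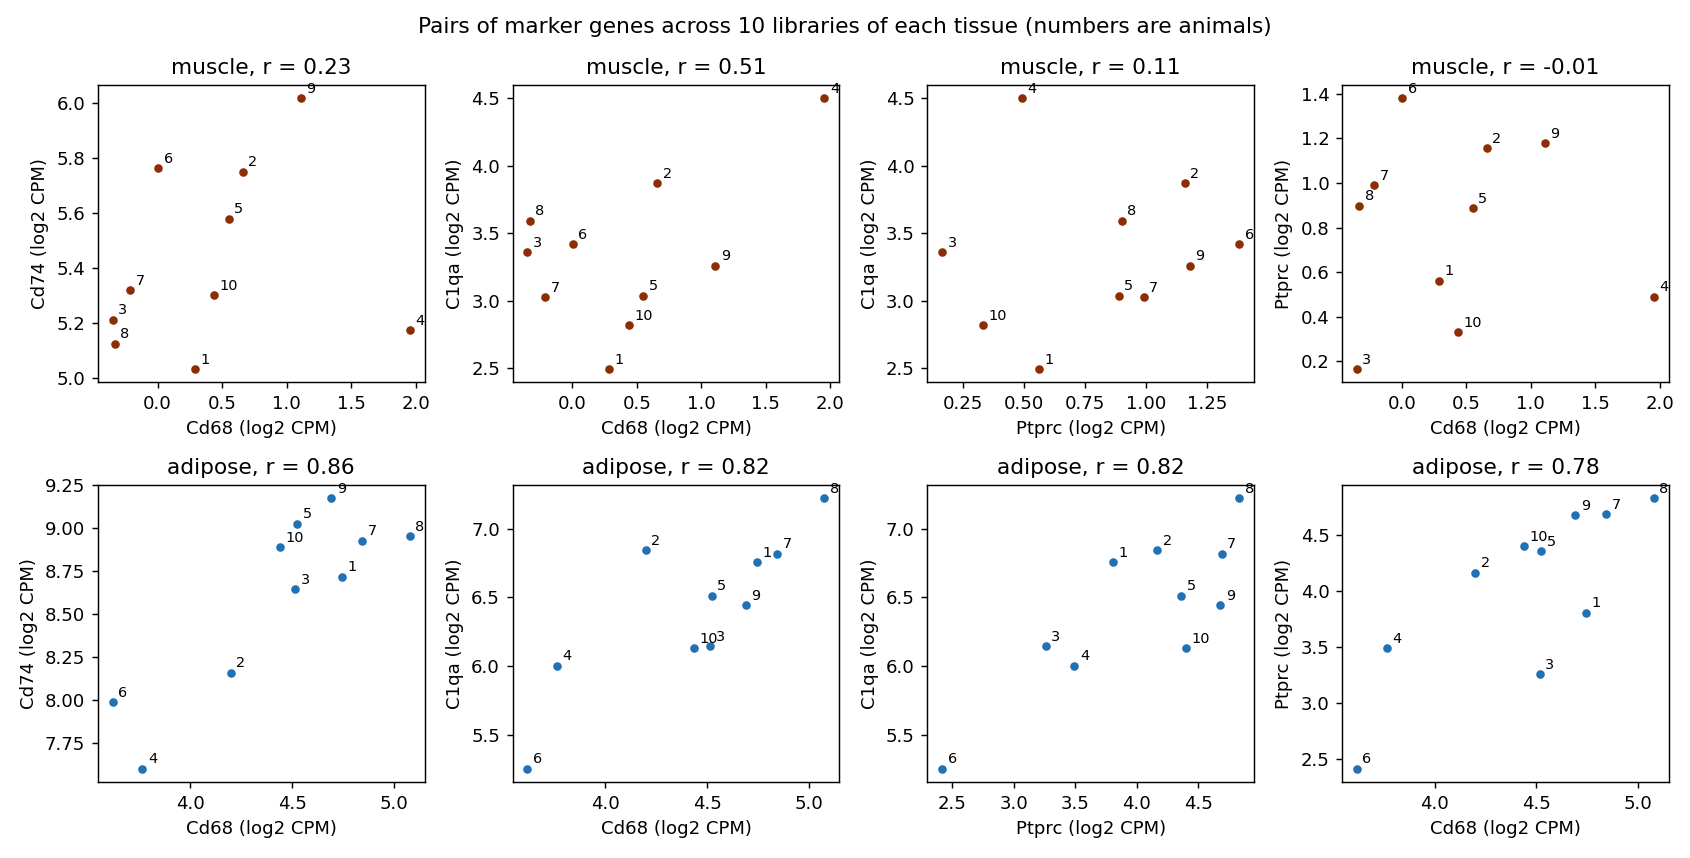
Log2 CPM (TMM-scaled, prior count 2) of 4 pairs of genes over the 10 muscle libraries (upper row) and the 10 adipose libraries (lower row). Numbers are animals and r is Pearson's correlation. In adipose tissue libraries 4 and 6 lie at the lower left and library 8 at the upper right of most panels.

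The genes most like each marker were sought among 11730 others that averaged 1 CPM or more in each tissue, by Pearson's r of log2 CPM, centred within each tissue, over the 20 libraries. C1qa had 2 genes above r = 0.9, Cd74 had 2, and Cd68, Ptprc and Ccl2 had 0. The gene most like C1qa was ENSRNOG00000012804 with r = 0.94, and the gene most like Cd74 was ENSRNOG00000032708 with r = 0.92. ENSRNOG00000032708 was also the one most like Ptprc, with r = 0.80. The highest r was 0.85 for Cd68 and 0.79 for Ccl2. These identifiers could not be paired with names, and the correlations describe these libraries only.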

How the data were processed

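Messenger RNA of gastrocnemius (about 10 mg) and abdominal white adipose tissue (about 30 mg) was sequenced from 300 ng of RNA per library, per the labels' protocols. Tools listed in the submitters' processing notes are bcl2fastq, STAR and featureCounts, with the genome build rn6. The gene annotation used, whether counting was stranded, and how multi-mapping reads were handled are not given in the sources that were used. The authors deposited expected counts per gene and library, not normalised, and 25.3% of the positive values were within 0.005 of a whole number. All tests used the counts after rounding.

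The genes and lists were chosen with earlier results of these data known. Lists of other markers, written by symbol, were not run, because 0 identifiers of the table matched a name in the gene table supplied. The tissues could thus not be checked against named markers.

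Counts were fitted over all genes in R 4.3.3 with edgeR 4.0.16 (filterByExpr, TMM factors, robust quasi-likelihood test, Benjamini-Hochberg adjustment), muscle over adipose tissue, without the animal as a block. The SE was taken from the fold change and its F statistic. Log2 CPM used a prior count of 2. Ratios were tested by exact sign flips over animals. The genes named were the 5 markers and, of the genes most like them, 2 identifiers in all.

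The titles and the design text pair the libraries of a number as those of one rat. Over 8303 genes, the deviations of 2 libraries from their tissue means correlated at -0.22 to 0.42 within animals, median 0.12, and at a median of -0.03 between animals. Alternatives were library totals, upper-quartile and relative log expression factors, the animal block, other filters, limma-voom (limma 3.58.1), DESeq2 1.42.0, each animal left out, and fits without adipose libraries 1, 3 and 5 or muscle library 2. Fits without adipose library 5, without adipose libraries 4 and 6, without muscle library 4, and with library totals and the block together were added after seeing the data.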

Additional observations from a re-analysis of the deposited data

How the results depend on the processing

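Each of the 5 genes remained lower in muscle, with an adjusted p below 0.05, under all 24 alternatives of the fit. Of all genes tested, 33.4% (no filter on low counts) to 74.2% (library totals alone) were called lower in muscle under these alternatives. With each animal left out in turn the log2 fold change, muscle over adipose tissue, ran from -4.36 to -3.85 for Cd68, -3.32 to -3.15 for Cd74, -3.59 to -3.31 for Ptprc, -3.30 to -2.96 for C1qa and -2.99 to -2.44 for Ccl2. Under the other alternatives it ran from -5.36 to -3.92, -4.51 to -3.12, -4.70 to -3.29, -4.38 to -3.03 and -4.08 to -2.59 in the same order, with the lowest values under library totals, with or without the block. With the animal as a block the values were -4.06, -3.19, -3.29, -3.08 and -2.79. Their adjusted p in edgeR was then 4.98e-08, 4.2e-09, 6.79e-08, 1.07e-07 and 0.000217, each larger than without the block. The block changed no call of the 5 genes. The number of genes called was 10990 with the block, beside 11011 without it. That number lay between 10566 and 13894 over the alternatives. With library totals 14.2% of the called genes were higher in muscle, beside 47.1% with TMM factors. Of 10 ratios between genes, 2 passed the test with all animals and 1 to 3 with an animal left out, which also leaves fewer samples for the exact test. No gap of a library exceeded Dixon's critical value under either alternative. The number of correlations that passed was 4 with TMM factors and 4 with library totals. Depth limits what can be said of Ccl2, Cd68 and Ptprc among muscle libraries. Their variance there was 4.14, 5.97 and 1.53 times that of counting alone, in the same order, so of these genes only Ptprc lay near counting error.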
